A study of Homo sapiens with 11 samples.

Results

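The 10 genes described here encode cyclins, kinases and a phosphatase that take a human cell from G1 into S phase: CCND1, CCND2, CCND3, CDK4, CDK6, CCNE1, CCNE2, CDK2, CDC25A and CCNA2. They were chosen by name, with earlier results of these data known. Every probe set whose annotated gene symbol, current or former, is one of these was taken, which gave 28 of the 54675 probe sets on the array. A further 2 probe sets carry the symbol CCN1, which is also listed as a former alias of CCNA2, but they belong to the gene now called CCN1 and were not counted. CDK6 had 7 probe sets, CCND2 had 4, CDK2 and CDC25A had 3 each, CDK4 had 1 and the other genes had 2 each.

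RNA came from IMR32 cells, a human neuroblastoma line with amplified MYCN, and was measured on 11 one-colour Affymetrix arrays. All cells were of this single line, grown in DMEM with fetal calf serum. The groups were 2 arrays without virus at 0 h, 1 array at each of 24, 48 and 72 h after transduction with pLenti virus carrying the control hairpin SHC002, and 2 arrays, A and B, at each of the same hours after virus carrying the MYCN hairpin TRCN0000020696. The labels do not say whether A and B were separate cultures, so the p-values measure the spread between arrays, which may be partly technical, and the single control virus arrays have no replicate of their own.

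The signal of the brightest MYCN probe set, the target of the hairpin, averaged 5028 ± 651 at 24 h, 5279 ± 53.4 at 48 h and 5285 ± 479 at 72 h (SD, n = 2 each) in the arrays labelled shMYCN, against 5332, 5390 and 5055 on the control virus arrays of those hours. Its difference from control virus over the 3 hours was -0.02 ± 0.081 (log2, standard error; adjusted p = 0.866). A second MYCN probe set, 209756_s_at, lay at 273 ± 26.9 (SD, n = 2) against 406 at 24 h and at 723 ± 102 (SD, n = 2) against 370 at 72 h. Since no difference passed on the brightest MYCN probe set, the arrays are called "labelled shMYCN" throughout. Of the neuroblastoma markers, 9 of the 10 with a probe set passed the filter on dim genes, led by GATA3, while TH was dim at a mean signal of 7.73. Markers of Schwann cells and of leukocytes were all below that filter (PTPRC 2.4, SOX10 4.45). Of the 9 neuroblastoma markers tested, CHGB rose by 0.47 and CHGA by 0.32 (log2, mean over 3 hours against control virus). DBH fell by 0.47, and the other 6 did not reach an adjusted p under 0.05, which 37.9% of all genes did.

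D-type cyclins (CCND1, CCND2, CCND3) are made in response to growth signals and bind CDK4 or CDK6. These kinases phosphorylate the retinoblastoma protein, which releases E2F factors to transcribe genes of DNA synthesis, among them the E-type cyclins. Cyclin E (CCNE1, CCNE2) activates CDK2, the phosphatase CDC25A removes the inhibitory phosphates from CDK2, and cyclin A2 (CCNA2) takes over CDK2 during S phase. MYC proteins bind the DNA word CACGTG, the E-box, and in neuroblastoma the D cyclins and their kinases are known for being highly active.

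The 300-base promoter windows in the RefSeq table (GRCh38.p14, 250 bases before to 50 after a transcript start) held 6 of the 10 genes: CCND3, CCNE1, CCNA2, CDK4, CDK6 and CDC25A. CCND1, CCND2, CCNE2 and CDK2 are named only. Both strands were searched for the E-box CACGTG, present in 7.26% of all 35116 windows, and for the E2F spellings TTTCGCGC, TTTGGCGC, TTTCCCGC and TTTGCCGC, present in 3.31%. The 250 bases upstream of CDK4 (chr12:57752311-57752560, minus strand) are shown because they held 3 E-boxes, starting 216, 196 and 101 bases before the start. They stand in capitals, and 0.0940% of all windows held 3 or more. The 250 bases upstream of CDC25A (chr3:48188418-48188667, minus strand) are shown because they held the 1 E2F match among the matched genes, in capitals, starting 44 bases before the start.
CDK4: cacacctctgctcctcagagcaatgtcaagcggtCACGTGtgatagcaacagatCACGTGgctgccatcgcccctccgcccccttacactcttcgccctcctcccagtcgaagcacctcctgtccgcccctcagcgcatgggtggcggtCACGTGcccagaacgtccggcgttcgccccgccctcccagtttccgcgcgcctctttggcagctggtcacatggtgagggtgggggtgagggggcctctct
CDC25A: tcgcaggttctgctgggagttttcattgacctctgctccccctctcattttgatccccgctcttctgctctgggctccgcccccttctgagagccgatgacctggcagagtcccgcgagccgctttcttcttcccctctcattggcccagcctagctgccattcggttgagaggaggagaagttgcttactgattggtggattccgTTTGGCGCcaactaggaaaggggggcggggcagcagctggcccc
One of the CDK6 windows held 1 E-box, at position 31 after the start, and the CCND3, CCNE1 and CCNA2 windows held neither motif. A match is a description of these letters, not a measured binding site.

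Averaged over the 3 hours, 7 of the 9 genes above the filter on dim genes had an adjusted p under 0.05 for arrays labelled shMYCN against control virus. CCNE2 fell by 1.18, CDC25A by 0.68, CCNE1 by 0.62, CDK2 by 0.22 and CDK4 by 0.16 on the log2 scale, while CDK6 rose by 0.61 and CCND3 by 0.24. CCND1 (-0.04) and CCNA2 (-0.16) did not pass in this mean. Over all 11865 genes tested 37.9% passed, 15.8% lower and 22.2% higher, so the 5 of 9 lower members stood beside a smaller share of lower genes overall and the 2 of 9 higher beside a like share. The median change was -0.16 over the 9 genes and 0.037 over all genes. Values here and below are differences of log2(signal + 16), tested with limma over all genes, two-sided, with Benjamini-Hochberg adjustment.

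More members passed at the later hours. At 24 h no member passed (0 of 9; 0.708% of all genes), and at an unadjusted p under 0.05 there were 2. At 48 h 3 passed, CCNE1 and CCNE2 lower and CDK6 higher (17.0% of all genes). At 72 h 6 passed, with CCNE1, CCNE2, CDC25A, CDK2 and CCNA2 lower and CDK6 higher (34.0% of all genes, 15.7% lower). The median over the 9 genes at 72 h was -0.48, against 0.036 over all genes. In RNA from whole cultures, fewer cells in a phase of the cycle and less mRNA per cell cannot be told apart.

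**Figure D1:**
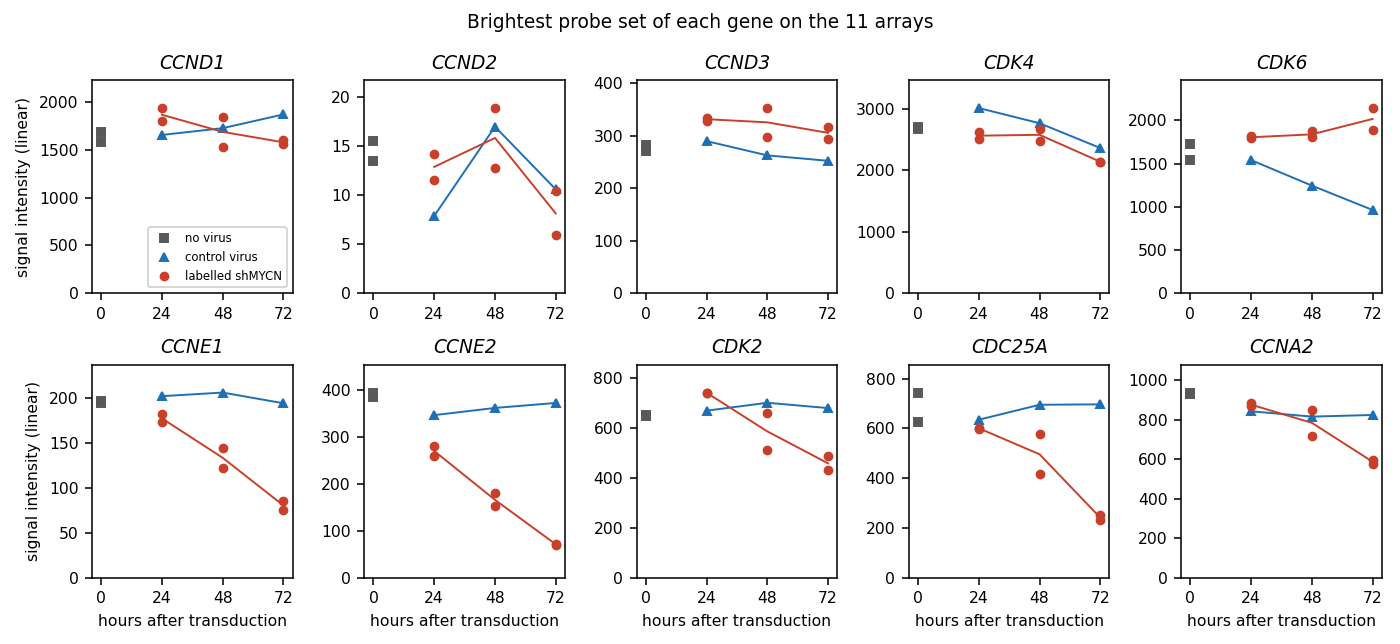
Linear signal intensity of the brightest probe set of each of the 10 genes (vertical axes, starting at 0) against hours after transduction, with 1 point per array and lines through the control virus arrays and through the means of the arrays labelled shMYCN. CCNE1, CCNE2 and CDC25A lie below the control virus array at every hour and lowest at 72 h, whereas for CDK6 the control line falls while the points labelled shMYCN lie above those without virus.

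Without the control virus array of 72 h, when the mean covers 24 and 48 h alone, 3 members passed: CCNE1 at -0.37 (adjusted p = 0.0214), CCNE2 at -0.70 (adjusted p = 0.000399) and CDK6 at 0.39 (adjusted p = 0.00709). Without the control virus array of 48 h, 4 passed. Over the 9 genes, no difference between control virus and no virus passed (4 of all genes did, 0.0337%). The largest was for CDK6 at -0.41 (adjusted p = 0.267), and 1 had an unadjusted p under 0.05. Virus and hours of culture cannot be told apart in this comparison, as the arrays without virus were of 0 h. One marker list of another cell type moved with the groups. The fibroblast markers COL1A1 and PDGFRB, 2 of 4 on the list above the filter, rose by 0.67 and 0.35, and the summed signal of the list was 455 to 706 on the arrays labelled shMYCN, 320 to 389 with control virus and 345 to 359 without virus. DCN (mean signal 13.0) and LUM (6.68) were below the filter, no marker of the list was at 0 on average, and the part of this shift in the results below was not tested.

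**Figure D2:**
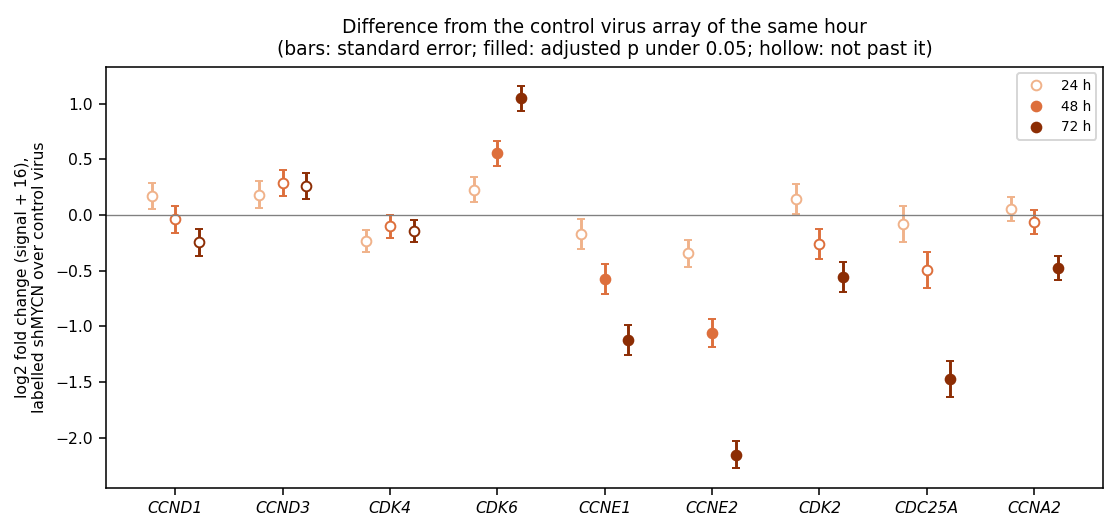
Log2 fold change of signal + 16 (vertical axis) for arrays labelled shMYCN relative to the hour-matched control virus array for the 9 genes above the dim filter, with standard errors as bars; filled points have an adjusted p under 0.05 and hollow points do not. All points of 24 h are hollow, and at 72 h CCNE2 is lowest at -2.15 and CDK6 highest at 1.05.

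Of the D cyclins, CCND1 did not pass at any hour. Its brightest probe set read 1681 and 1576 without virus, 1655, 1726 and 1870 with control virus at 24, 48 and 72 h, and 1936 and 1796 (24 h), 1529 and 1845 (48 h) and 1558 and 1598 (72 h) on the arrays labelled shMYCN. The groups overlapped, and the differences of 0.17, -0.04 and -0.24 at the 3 hours had adjusted p-values of 0.669, 0.856 and 0.145. The second probe set read between 869 and 1093 on all arrays.

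CCND3, the D cyclin best known from lymphoid cells, read 271 and 283 without virus and 290, 263 and 253 with control virus. On the arrays labelled shMYCN it read 329 and 335 (24 h), 299 and 353 (48 h) and 294 and 318 (72 h), so all 6 lay above all 5 others. Its mean difference was 0.24 ± 0.069 (standard error; adjusted p = 0.0158), with single hours at 0.18, 0.29 and 0.26 that did not pass. The call was lost with median scaling and without the control virus array of 48 h (0.22, adjusted p = 0.0707) or of 72 h (0.24, adjusted p = 0.0796). Against no virus the mean difference was 0.20 (adjusted p = 0.0793). The other CCND3 probe set was dim, at no more than 13.9 on any array.

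CCND2 was below the filter, whose mean signal was 14.8. The brightest of its 4 probe sets read between 5.9 and 18.9 over the 11 arrays with overlapping groups, and the others never exceeded 8.5. No difference was detectable at this signal, and no CCND2 value entered the gene-level fit.

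CDK4 binds the D cyclins as their main kinase partner together with CDK6. It read 2712 and 2669 without virus, 3013, 2766 and 2363 with control virus at 24, 48 and 72 h, and 2620 and 2507 (24 h), 2481 and 2674 (48 h) and 2142 and 2137 (72 h) on the arrays labelled shMYCN. Both series were lower at 72 h than at 24 h. Within the arrays labelled shMYCN the change was -0.26 ± 0.082 (adjusted p = 0.0285), and between the single control virus arrays it was -0.35 (adjusted p = 0.454). The mean difference between the viruses was -0.16 ± 0.058 (adjusted p = 0.0494), which passed in 6 of 20 alternative analyses and was lost without any 1 of the 3 control virus arrays (adjusted p between 0.0706 and 0.191).

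CDK6 moved the other way. It read 1731 and 1537 without virus. With control virus it read 1540 at 24 h, 1245 at 48 h and 963 at 72 h, and on the arrays labelled shMYCN 1815 and 1792, 1803 and 1872, and 2141 and 1890. All 6 arrays labelled shMYCN were above all 5 others, and the control virus arrays of 48 and 72 h were the lowest of the 11. The difference was 0.23 at 24 h, 0.56 ± 0.11 at 48 h (adjusted p = 0.00664) and 1.05 ± 0.11 at 72 h (adjusted p = 4.36e-05), a 2.09-fold ratio of signals at 72 h.

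Because the control series itself was lower at later hours, CDK6 was also set against no virus, a comparison chosen after its values were seen. At 72 h the control virus array stood at 58.9% of the mean without virus and the arrays labelled shMYCN at 123%. The arrays labelled shMYCN differed from no virus by 0.30 ± 0.091 at 72 h (adjusted p = 0.0192) and by 0.20 ± 0.075 in the mean (adjusted p = 0.0575). The control virus array of 72 h differed from that of 24 h by -0.67 ± 0.13 (adjusted p = 0.104), where 15 genes in all passed (0.126%). Of the 1.05 between the viruses at 72 h, 0.30 thus lay between the arrays labelled shMYCN and no virus, and the rest between no virus and 1 control virus array. Both parts mix virus with hours of culture, since the arrays without virus were of 0 h.

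**Figure D3:**
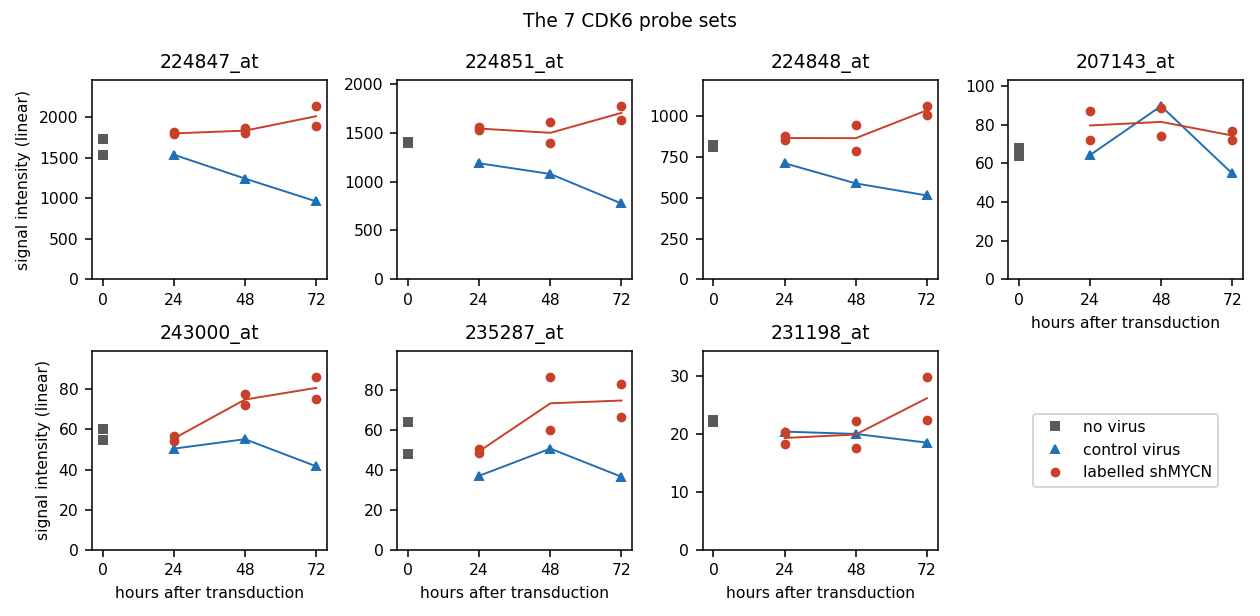
Linear signal intensity (vertical axes, starting at 0) of each of the 7 CDK6 probe sets against hours after transduction, 1 point per array. In the 3 brightest probe sets the control virus line falls and the arrays labelled shMYCN lie above it at each hour, while the dimmer ones overlap in part.

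The 7 CDK6 probe sets gave the same direction. The 3 brightest had mean differences of 0.61, 0.65 and 0.60, and at 72 h 224851_at and 224848_at gave 1.12 (adjusted p = 0.000575) and 0.99 (adjusted p = 0.00124) in a fit of all probe sets. Among the 4 dimmer ones, 243000_at (0.40) and 235287_at (0.50) passed, and 207143_at (0.16) and 231198_at (0.08) did not.

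The E cyclins fell furthest. CCNE2 read 384 and 394 without virus and 346, 361 and 372 with control virus. On the arrays labelled shMYCN it read 259 and 281 at 24 h, 180 and 152 at 48 h and 72.5 and 70.0 at 72 h. The 6 arrays lay below all 5 others, and the pairs of the 3 hours did not overlap. The difference was -0.34 ± 0.12 at 24 h (adjusted p = 0.299), -1.06 at 48 h (adjusted p = 0.000254) and -2.15 at 72 h (adjusted p = 8.19e-07), with 5.22-fold more signal in the control virus array of 72 h. Its second probe set read 73.1 and 76.1 at 24 h and 23.5 and 25.4 at 72 h, against 107 to 139 on the 5 arrays without the MYCN hairpin, and its mean difference was -1.09 (adjusted p = 0.000119).

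CCNE2 was the only member to differ from no virus by 24 h, at -0.50 ± 0.10 (adjusted p = 0.0289; 1.74% of all genes passed). At 72 h, 7 members differed from no virus (45.5% of all genes): CCNE2 at -2.21, CDC25A at -1.44, CCNE1 at -1.14, CCNA2 at -0.65, CDK2 at -0.49, CDK4 at -0.33 and CDK6 at 0.30. This comparison shares the arrays labelled shMYCN with the one against control virus. The arrays without virus were of 0 h, so virus, hairpin and hours of culture cannot be told apart in it. For CDK4 the difference from the control virus array of 72 h was -0.14 (adjusted p = 0.304).

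CCNE1, the other cyclin E, read 197 and 195 without virus and 202, 206 and 194 with control virus. It read 173 and 182 (24 h), 122 and 145 (48 h) and 85.3 and 75.4 (72 h) on the arrays labelled shMYCN, all below the 5 others. The difference was -0.17 at 24 h, -0.58 ± 0.13 at 48 h (adjusted p = 0.0145) and -1.13 ± 0.13 at 72 h (adjusted p = 9.34e-05). Its second probe set never exceeded 2.3. The 48 h call was lost when all probe sets of a gene were averaged.

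CDK2, the kinase of the E and A cyclins, read 647 and 652 without virus and 668, 699 and 678 with control virus. It read 740 and 740 at 24 h, above all 5 other arrays, 511 and 659 at 48 h, and 430 and 485 at 72 h, below them, on the arrays labelled shMYCN. The difference at 72 h was -0.55 ± 0.14 (adjusted p = 0.00844) and at 24 h 0.14 (adjusted p = 0.779). The mean of -0.22 ± 0.078 (adjusted p = 0.0413) passed in 9 of 20 alternatives and became -0.06 (adjusted p = 0.721) without the control virus array of 72 h and -0.21 (adjusted p = 0.135) without that of 48 h. The 72 h call was lost without array A of 72 h and when all probe sets were averaged. A second probe set, 211804_s_at, gave -0.66 at 72 h (adjusted p = 0.152), and the last never exceeded 17.2.

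CDC25A, the phosphatase that activates CDK2, read 744 and 627 without virus and 635, 695 and 696 with control virus. On the arrays labelled shMYCN it read 602 and 599 at 24 h, 416 and 575 at 48 h and 232 and 251 at 72 h. All 6 lay below the 5 others, with the 48 h pair far apart. Over all genes too the 48 h pair was the least alike, which limits every 48 h value. The SD of its log2 differences was 0.271, against 0.172 to 0.186 in the other pairs. The CDC25A difference from control virus was -0.08 at 24 h, -0.49 at 48 h (adjusted p = 0.0596) and -1.47 ± 0.16 at 72 h (adjusted p = 5.44e-05). The mean became -0.28 (adjusted p = 0.120) without the control virus array of 72 h. The other CDC25A probe sets differed in size and in the course over the hours. The probe set 1555772_a_at gave 0.28 at 48 h (adjusted p = 0.507), -0.82 at 72 h (adjusted p = 0.0276) and -0.16 in the mean. For 204696_s_at the values were -0.84 at 48 h (adjusted p = 0.0264), -0.33 at 72 h (adjusted p = 0.245) and -0.46 in the mean (adjusted p = 0.0120).

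CCNA2 fell late. Its brightest probe set read 937 and 929 without virus and 842, 815 and 824 with control virus, and 883 and 869 (24 h), 849 and 719 (48 h) and 578 and 596 (72 h) on the arrays labelled shMYCN. The 72 h pair was the lowest of the 11 arrays. The 24 h pair lay above the control virus arrays and below those without virus, and the 48 h pair lay on both sides of the control virus arrays. The difference at 72 h was -0.48 ± 0.11 (adjusted p = 0.00567), and at 24 and 48 h 0.06 and -0.06. The second probe set gave a mean of -0.54 (adjusted p = 0.00427), against -0.16 (adjusted p = 0.124) for the brightest in the same fit, so the CCNA2 mean depends on the probe set. The second probe set read 507 and 500, 381 and 510, and 302 and 321 at the 3 hours, against 585 to 635 on the 5 other arrays. It was thus below them from 24 h on, and the timing depends on the probe set too. Its differences were -0.21 at 24 h (adjusted p = 0.743), -0.51 at 48 h (adjusted p = 0.102) and -0.90 at 72 h (adjusted p = 0.00619).

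**Figure D4:**
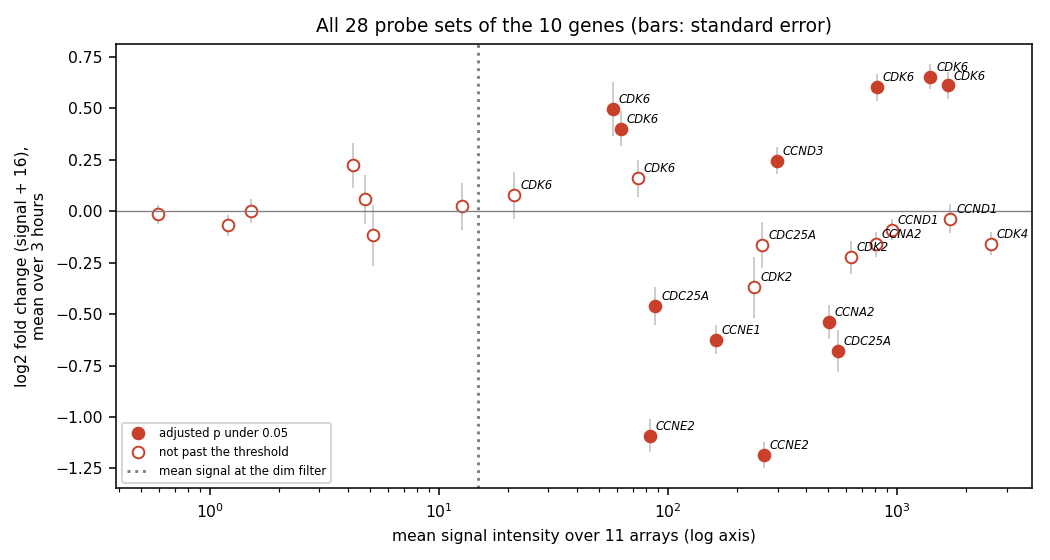
Mean log2 fold change of signal + 16 over the 3 hours (vertical axis, standard errors as bars) against mean signal over 11 arrays (horizontal log axis) for all 28 probe sets, filled where the adjusted p over all probe sets is under 0.05. Filled points of CDK6 and CCND3 lie above 0, those of CCNE1, CCNE2, CDC25A and CCNA2 lie below it, and no probe set left of the dotted line at 14.8 is filled.

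In the fit of each probe set on its own, 12 of the 28 passed in the mean (14.7% of the 41091 probe sets tested), and CDK2 and CDK4 did not (adjusted p = 0.113 and 0.103). Of the 18 probe sets that were not the brightest of their gene, 12 were above the mean signal at the filter. These 12 had the sign of the brightest one, and 7 of them passed.

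Change with time was tested directly. Within the arrays labelled shMYCN, 6 members were lower at 72 h than at 24 h (36.4% of all genes changed, 18.3% lower): CCNE2 by -1.71 ± 0.10 (adjusted p = 1.22e-06), CDC25A by -1.26, CCNE1 by -1.0, CDK2 by -0.68, CCNA2 by -0.56 and CDK4 by -0.26. CDK6 changed by 0.16 ± 0.091 there (adjusted p = 0.206). The effect relative to control virus differed between 72 and 24 h for 6 members (10.3% of all genes), which were CCNE2, CDC25A, CCNE1, CDK2, CCNA2 and CDK6, with CDK6 going up. The CDK4 call was kept in 12 of 20 alternatives, and those of CDK2 and CCNA2 in the difference of effects in 9 of 18 each. That of CCNE1 was lost with averaged probe sets (adjusted p = 0.0976).

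On the brightest probe set, all 6 arrays labelled shMYCN lay on the same side of all 5 others for 5 of the 9 members: CCND3 and CDK6 above, and CCNE1, CCNE2 and CDC25A below. Over all genes 14.9% did so. None of the other probe sets of CDK6 and CDC25A had all 6 on the same side. The second probe sets of CCNE2 and CCNA2 had all 6 below.

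Paralogs were compared as log2 ratios within each array, which does not set the level of a probe set against that of another. The ratio was tested over 6 arrays labelled shMYCN and 3 control virus arrays by an exact two-sided permutation test over 84 splits, for which the smallest p is 0.0238, with adjustment over 4 pairs. CCNE2 fell more than CCNE1: their log2 ratio was 0.24 ± 0.35 (SD, n = 6) against 0.80 ± 0.080 (SD, n = 3), a difference of -0.56 (exact permutation p = 0.0238, adjusted 0.0476). CDK6 over CDK4 was -0.36 ± 0.22 (SD, n = 6) against -1.13 ± 0.16 (SD, n = 3), a difference of 0.77 (exact permutation p = 0.0238, adjusted 0.0476). CCND1 over CCND3 differed by -0.28 (exact permutation p = 0.0476, adjusted 0.0635), and CDK4 over CDK2 by 0.065 (exact permutation p = 0.714), so neither passed. Arrays of different hours enter as replicates there. With permutation within hours, the first 2 pairs both stood at the smallest possible p of 0.037 (adjusted exact p = 0.0741 each). With 2 of 4 pairs at that p the adjusted value cannot be under 0.05, so this check decides nothing about them. CCND2 was too dim to enter.

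Other genes of the cell cycle, and other cyclins and kinases, were taken from 6 lists chosen by role, with earlier results of these data known. Their counts beside the shares over all genes are a description, not a test. Of 10 E2F and DP factors, 7 fell, 1 rose and 2 missed the threshold in the mean, with a median of -0.38, beside 15.8% lower and 22.2% higher over all genes. Those that fell included E2F5 at -1.51, the DP factor TFDP1 at -1.32, and E2F2 at -0.79 (adjusted p = 1.36e-07, 1.31e-07 and 2.49e-05). Of 16 genes for the start of DNA synthesis, such as the MCM helicase and the origin complex, 12 were lower and none was higher, with a median of -0.29, beside the same shares over all genes. MCM3 fell by 1.14, MCM5 by 0.95 and ORC1 by 0.86. At 72 h, 14 of these 16 were lower, beside 15.7% of all genes.

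Of the CDK inhibitors and pocket proteins, 8 of 10 were tested, 2 rose, 1 fell and 5 missed the threshold (median -0.04), so 3 of 8 passed, close to the 37.9% of all genes. CDKN1C, which encodes the inhibitor p57, rose by 1.44 ± 0.061 (adjusted p = 7.36e-08) and the pocket protein RBL2 by 0.60, while CDKN1A, the inhibitor p21, fell by 0.39. Of 16 genes of CDK activation and cyclin turnover, 4 fell, 1 rose and 11 missed the threshold (median -0.02). A smaller share passed than over all genes, of which 15.8% were lower and 22.2% higher. The higher gene was FBXW7, the ubiquitin ligase subunit that recognises cyclin E, at 0.58. PKMYT1, a kinase that inhibits CDK1, was at -0.44 and CDC25C at -0.32. At 72 h 6 of these 16 were lower and 2 higher, beside 15.7% lower over all genes, with a median of -0.02.

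Of 10 cyclins and kinases of G2 and mitosis, 3 fell and 1 rose in the mean, beside 15.8% lower and 22.2% higher over all genes. Their median was -0.06, and the 4 of 10 that passed stood beside 37.9% of all genes. PLK1 fell by 0.54 and CCNF by 0.36, and AURKA rose by 0.31. At 72 h 4 of these 10 were lower and 1 was higher, beside 15.7% lower over all genes. Their median at 72 h was -0.245, against 0.036 over all genes. Among 22 cyclins and kinases of transcription and other roles, 6 were higher and 7 lower (22.2% and 15.8% over all genes), with a median of 0.040, close to the 0.037 of all genes. CDK19 (-1.26) and CCNI (-0.83) fell, and CDK5R1, the neuronal activator of CDK5, rose by 0.94.

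**Figure D5:**
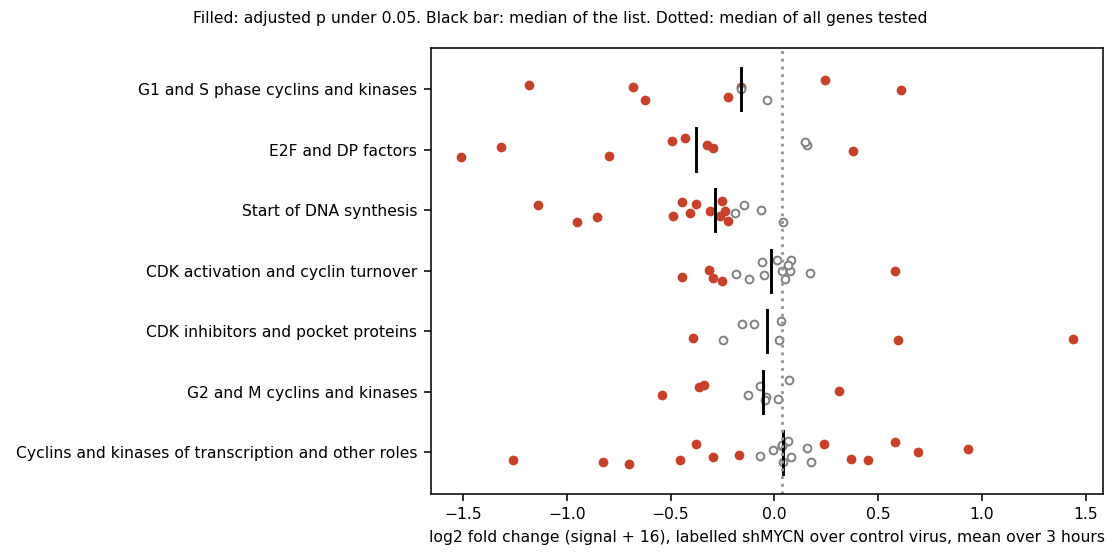
Log2 fold change of signal + 16 in the mean over the 3 hours (horizontal axis) for each tested gene of the 10 G1 and S genes and of 6 lists by role, filled where the adjusted p is under 0.05, with black bars at list medians. The medians of the E2F and DP factors (-0.38) and of the genes for the start of DNA synthesis (-0.29) lie left of the median of all genes, dotted at 0.037.

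For each member that passed in the mean, the 3 genes with the most similar log2 profile over the 11 arrays were taken by Pearson r, as a description with no test, since all profiles share the same arrays, hours and groups. The profile of CCNE2 was closest to ZNF45 (r = 0.996), TRAM1 (0.995) and CTNNAL1 (0.995), and that of CCNE1 to NBN, UTP4 and CCT7 (0.992 each). CDC25A was closest to TPX2, a spindle protein (0.991), SEPTIN11 (0.985) and the helicase subunit MCM5 (0.985). CDK2 was closest to RECQL4 (0.981), PGD (0.977) and TNPO2 (0.973), and CDK4 to TMEM258 (0.959), HAX1 (0.955) and PFDN2 (0.949). CDK6 was closest to COX7C (0.951), NCOA6 (0.950) and KLHL42 (0.948), and CCND3 to TRAPPC1 (0.949), BLCAP (0.939) and URGCP (0.938). Among the members themselves, r was 0.977 between CCNE1 and CCNE2, 0.973 between CCNE1 and CDC25A and -0.652 between CDK6 and CCNE2, each over 11 arrays.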

How the data were processed

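Per probe set the authors deposited an intensity on a linear scale, with MAS5 and GCOS named in the submitters' processing notes. The trimmed mean (middle 96% of probe sets) came to 99.99 on each of the arrays, which hides changes in total RNA per cell. Median signals were 14.9 to 16.7. How background was corrected is not given in the sources used here. Their number of arrays limits the precision.

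Probe sets with 1 gene symbol were kept (41097 of 54675; 1801 had several symbols and 11777 none), and 41037 symbols were updated through their Entrez number. Each gene was represented by its brightest probe set. The dimmest 40% of 19775 genes, with a mean signal under 14.8, were left out. On log2 values of the deposited signals with 16 added, which understates changes of dim genes, 7 group means over 11 arrays were fitted with limma 3.58.1 under R 4.3.3, by lmFit and eBayes with a trend (4 residual and 7.35 prior degrees of freedom), with Benjamini-Hochberg adjustment over 11865 genes and a threshold of 0.05. Only the 4 groups of 2 arrays carry information on spread, which the fit applies to the lone arrays of control virus too. Probe sets were fitted likewise without the filter. Exact permutation tests used scipy 1.17.1. The fit was tested on simulated data.

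The named genes are all members, the 3 genes of each list with the smallest p in the mean over 3 hours, and the 3 genes whose profiles were most like each member that passed there. The members and the lists were chosen with earlier results of these data known. Other settings tried were 1 or 64 added to the signal, scaling to the median, quantile normalization, a filter of 60% or none, averaged probe sets, no trend, the letter as a block and leaving out arrays. No virus as the reference and the control virus arrays of 72 and 24 h were compared after the CDK6 values had been seen.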

Additional observations from a re-analysis of the deposited data

Results flagged for a closer look

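For 6 members the difference between the arrays labelled shMYCN and control virus was itself tested between 72 h and 24 h (limma, adjusted over all genes), and it differed. The effect at 72 h minus that at 24 h was -1.81 ± 0.17 for CCNE2 (log2, standard error; adjusted p = 0.000265), -1.39 ± 0.23 for CDC25A (adjusted p = 0.00414) and -0.95 ± 0.19 for CCNE1 (adjusted p = 0.0110). It was -0.70 ± 0.19 for CDK2 (adjusted p = 0.0402) and -0.53 ± 0.15 for CCNA2 (adjusted p = 0.0486). For CDK6 it was 0.82 ± 0.16 (adjusted p = 0.00894), and there the control virus array fell from 1540 at 24 h to 963 at 72 h. These values are of the brightest probe sets, and each rests on 1 control virus array per hour. In the fit of all probe sets the brightest CDC25A probe set gave -1.39 (adjusted p = 0.0380). There 1555772_a_at gave -0.87 (adjusted p = 0.165) and 204696_s_at -0.12 (adjusted p = 0.867). In that fit the brightest probe sets of CDK2 and CCNA2 did not pass (adjusted p = 0.132 and 0.125). Their second probe sets did not pass either (adjusted p = 0.374 and 0.153).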

How the results depend on the processing

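CCNE1, CCNE2 and CDK6 passed in the mean over 3 hours under all 20 alternative settings listed in the methods, CDC25A under 19, CCND3 under 17, CDK2 under 9, CDK4 under 6, CCNA2 under 5 and CCND1 under none. Leaving out 1 array, the count of members passing was 3 to 8 in the mean (4 without the control virus array of 48 h, 3 without that of 72 h), 3 to 5 at 48 h (5 without array B of 48 h) and 0 to 1 for control virus against no virus, where it was also 1 with quantile normalization. With no virus as the reference, 4 passed in the mean and 1 at 24 h. No shift between the letters A and B that was shared by the hours was seen. The correlation of their differences across genes between hours was -0.05, 0.04 and 0.10. Whether the letters mark paired cultures is not stated in the labels. With the letter as a replicate block, 7 members passed in the mean, 4 at 48 h and 6 at 72 h.

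The log2 ratio of CCNE2 over CCNE1 differed by -0.63 to -0.47 leaving out 1 array, and that of CDK6 over CDK4 by 0.69 to 0.85. With 1 array left out fewer splits exist and the smallest possible p is larger. Whether these ratios then passed was set by the number of splits and by how many pairs reached that p. Both passed the threshold only without array A of 24 h labelled shMYCN, where CCND1 over CCND3 passed too. Permuted within hours these 2 ratios stayed at -0.56 and 0.77, at the smallest p that those splits allow, which could not pass after adjustment. CCND1 over CCND3 passed with averaged probe sets (-0.30) and without array A of 24 h labelled shMYCN (-0.31), and ranged from -0.37 to -0.19 leaving out 1 array. CDK4 over CDK2 ranged from -0.027, without the control virus array of 72 h, to 0.16.

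Of 1251 single-member values under alternatives, 1140 kept sign and call, 64 lost the call, 29 gained it and 18 changed sign. The sign changes were small and none passed. Leaving out 1 array, CCND1 was -0.14 to 0.066 in the mean and -0.17 to 0.095 at 48 h, CCNA2 -0.18 to 0.057 at 48 h, and against no virus the control virus value was -0.073 to 0.10 for CDK4 and -0.14 to 0.10 for CDC25A. With averaged probe sets CCNA2 was -0.078 at 24 h, the CCND3 difference of effects was -0.10, and control virus against no virus was 0.041 for CCND3 and -0.024 for CCNE1. It was -0.045 for CDK4 with quantile normalization and -0.029 with median scaling. Against no virus, CCND1 was 0.065 in the mean and 0.045 at 48 h, and CCNA2 -0.090 at 24 h. The cause of these changes was not tested. Signal over background limits CCND2, which did not enter any gene-level fit that had the filter.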
